A study of Mus musculus with 4 samples.

Results

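The genes described here build fatty acids, burn them, store them as neutral fat and sense or bind them inside the cell. They were taken by name, 39 in all, from the 25413 genes of a bulk RNA-seq experiment, and the list was drawn up with earlier results of these data known. The experiment held 2 libraries of EpH4 cells exposed to PM2.5, fine airborne particles, and 2 libraries of untreated Control cells. EpH4 is an immortalised mouse mammary epithelial line. All 4 libraries were of WT genotype, came from 2D culture, carry a common batch value in the labels and were made with a stranded polyA ligation kit from 750 ng of RNA. The labels do not state the particle dose or the time of exposure. They also do not say that the replicates were separate cultures, so p-values measure only how far these samples differ, and that spread may be technical. The comparison addresses which lipid metabolism transcripts differ after particle exposure.

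Fatty acids are made in the cytosol from acetyl-CoA, which ATP citrate lyase releases from citrate, through malonyl-CoA and a multi-step cycle on the fatty acid synthase. Elongases and desaturases then shape the chain, and the transcription factor SREBP-1 activates many of these genes, in the mammary gland above all during lactation, when the epithelium secretes milk fat. Fatty acids to be burned are activated to acyl-CoA, carried into mitochondria on carnitine and shortened by the enzymes of beta-oxidation, with a second set of enzymes in peroxisomes. Excess fatty acid is esterified and kept in lipid droplets coated by perilipins. The peroxisome proliferator-activated receptors (PPARs) bind fatty acids and, as partners of RXR, activate genes of all these steps.

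Total counts were 20232277 and 18548478 in the PM2.5 libraries and 19562930 and 26206329 in the Control libraries. Values per library are given in CPM, the count scaled to the library's total by TMM, and a floor of 3 counts equals 0.116 to 0.158 CPM. Between replicates the chi-square per gene was 3.77 for PM2.5 and 7.29 for Control, above the value near 1 that sampling noise gives. The reads carry no molecular identifiers, so counting intervals and floors reflect counting error alone.

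The promoters of 4 of the genes are shown because their transcripts turn in opposite directions below: Acly and Fasn were lower in PM2.5 cells, and Ehhadh and Pdk4 were higher. Each window runs 5′ to 3′ from 250 bases before to 50 bases after the annotated start, from RefSeq on the GRCm38.p6 build. Capitals mark matches on either strand to CCAAT, the box bound by NF-Y, to TCACNCCAC, a form of the sterol regulatory element, to CACGTG, the E-box, and to 2 copies of AGGTCA with 1 base between them, the direct repeat bound by PPAR with RXR.
Acly, chr11:100527951-100528250, minus strand: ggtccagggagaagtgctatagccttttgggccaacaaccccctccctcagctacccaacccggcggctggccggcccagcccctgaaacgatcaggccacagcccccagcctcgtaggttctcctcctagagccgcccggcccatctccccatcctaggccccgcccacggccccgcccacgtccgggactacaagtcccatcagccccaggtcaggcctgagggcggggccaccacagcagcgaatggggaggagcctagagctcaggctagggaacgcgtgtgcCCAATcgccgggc
Fasn, chr11:120824498-120824797, minus strand: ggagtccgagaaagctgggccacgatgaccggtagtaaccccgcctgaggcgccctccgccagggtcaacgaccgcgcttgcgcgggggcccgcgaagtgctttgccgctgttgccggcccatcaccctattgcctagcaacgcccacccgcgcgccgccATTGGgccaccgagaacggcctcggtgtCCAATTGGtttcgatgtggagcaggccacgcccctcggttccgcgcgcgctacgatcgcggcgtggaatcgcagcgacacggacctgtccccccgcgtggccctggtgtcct
Ehhadh, chr16:21787785-21788084, minus strand: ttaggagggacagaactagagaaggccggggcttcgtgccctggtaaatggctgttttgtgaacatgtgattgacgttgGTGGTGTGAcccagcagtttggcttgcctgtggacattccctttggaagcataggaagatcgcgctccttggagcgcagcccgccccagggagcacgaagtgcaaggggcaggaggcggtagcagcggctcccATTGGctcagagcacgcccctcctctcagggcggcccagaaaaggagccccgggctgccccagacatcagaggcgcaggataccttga
Pdk4, chr6:5496229-5496528, minus strand: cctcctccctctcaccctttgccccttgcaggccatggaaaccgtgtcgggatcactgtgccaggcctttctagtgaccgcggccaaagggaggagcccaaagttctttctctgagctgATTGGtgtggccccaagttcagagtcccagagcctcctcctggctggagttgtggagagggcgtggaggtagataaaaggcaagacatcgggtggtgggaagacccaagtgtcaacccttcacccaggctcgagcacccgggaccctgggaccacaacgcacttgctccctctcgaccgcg
The Fasn window holds 3 CCAAT matches, of which 2 overlap in the stretch CCAATTGG, and the Acly window holds 1, which lies after the start. The Ehhadh window holds 1 CCAAT match and 1 match to TCACNCCAC, and the Pdk4 window 1 CCAAT match. RefSeq windows were matched for 33 of the 39 genes. CCAAT was found in 19 of these 33 genes, in at least 1 window where a gene has several, against 37.4% of all 32851 windows. TCACNCCAC was found in 2 genes, Ehhadh and Ucp2, against 1.24% of all windows, and CACGTG in 2 genes, Elovl5 and Plin2, against 7.15%. The direct repeat of AGGTCA was not found in the windows of the 33 genes and occurred in 0.0396% of all windows. GCGTG, the core bound by the aryl hydrocarbon receptor and not set in capitals, was found in 21 of the 33 genes, against 32.4% of all windows. The shares over all windows count single windows, while a gene with several windows has more chances of a match. Counts of genes and shares of windows are therefore not directly comparable. A match is a description of letters, not of a bound site.

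PM2.5 cells held more transcript of the fatty acid binding protein Fabp4, the peroxisomal enzyme Ehhadh and the kinase Pdk4. They held less of the fat-cell receptor Pparg, the perilipin Plin4, the lipogenic factor Srebf1 and the 3 core enzymes of fatty acid synthesis, Acly, Acaca and Fasn. The calls on these 3 enzymes ended once the median change of the neighbouring genes was subtracted (log2 fold changes of -0.08, -0.07 and -0.17, adjusted p = 0.277, 0.451 and 0.0534). Of the 39 genes, 34 had enough counts to be tested; 8 were higher, 8 were lower and 18 did not pass (edgeR quasi-likelihood test, adjusted p below 0.05). The called share over all 12478 tested genes was 39.6%, with 19.2% higher and 20.4% lower, against 47.1% of the 34. The called share of these genes is thus near that background. With scaling to library size only, 3090 of all tested genes were higher and 1889 lower, and of the 34 genes 10 were higher and 7 lower. The median log2 fold change of PM2.5 over Control was -0.02 over the 34 genes and 0.01 over all tested genes. Most changes were small. Of the 34 genes, 5 were called and differed by more than 2-fold: Ehhadh, Fabp4, Pdk4, Pparg and Plin4. Over all 12478 tested genes, 720 were called and differed by more than 2-fold, which is 5.77%. Among called genes alone, these were 5 of the 16 here and 720 of 4939 over all tested genes. PM2.5 libraries both lay above the Control libraries for 12 of the 34 genes and both below for 12, against 71% of all tested genes without overlap. Without PM2.5 replicate 1, fewer genes passed, both among the 34 and over all tested genes.

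**Figure D1:**
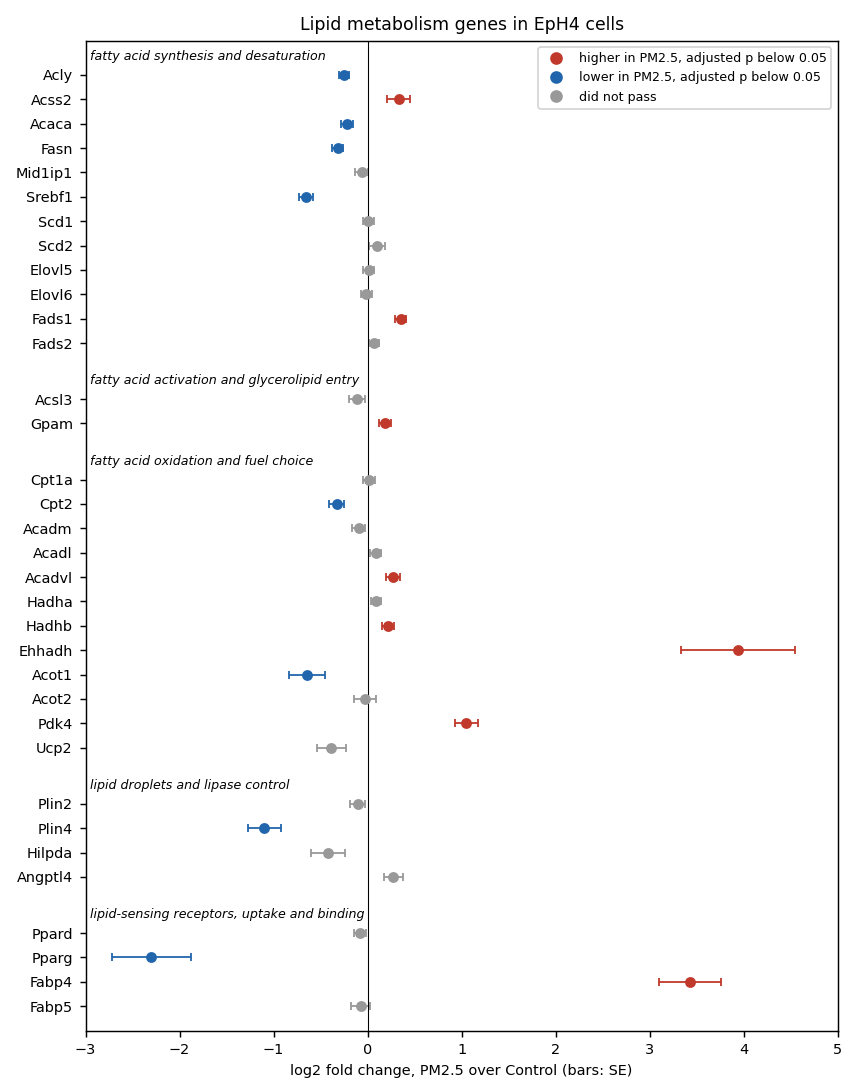
Log2 fold change of PM2.5 over Control for the 34 tested genes, by role, with bars of 1 SE; red points were higher, blue points lower and grey points did not pass the test. Ehhadh and Fabp4 lie farthest to the right, at 3.94 and 3.43, Pparg farthest to the left, at -2.30, and most other genes within 0.5 of 0.

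Acly, Acaca and Fasn, which supply and join the carbon units of a fatty acid, were lower in PM2.5 cells by small amounts, and none of these calls held once the change of neighbouring genes was subtracted, as given further on. Acly, ATP citrate lyase (ENSMUSG00000020917, chromosome 11, 100367179 to 100418826, minus strand, GRCm39), had 433 and 432 CPM in the PM2.5 libraries, against 517 and 510 CPM in the Control libraries. Its log2 fold change was -0.25 (SE 0.053, adjusted p = 0.00391). Both PM2.5 values lay below both Control values, and replicates stayed close together. Fasn, the fatty acid synthase (ENSMUSG00000025153, chromosome 11, 120696672 to 120715373, minus strand), had 596 and 590 CPM in the PM2.5 libraries and 774 and 707 CPM in the Control libraries. The log2 fold change of Fasn was -0.32 (SE 0.060, adjusted p = 0.00202). Control replicate 1 was the highest of the 4 libraries for Fasn, and the groups did not overlap.

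Acaca, acetyl-CoA carboxylase, which makes malonyl-CoA (ENSMUSG00000020532, chromosome 11, 84020498 to 84292477, plus strand), had 180 and 176 CPM in PM2.5 cells and 217 and 197 CPM in Control cells. Its log2 fold change was -0.22 (SE 0.062, adjusted p = 0.0183). Control replicate 2 lay closer to the PM2.5 libraries than Control replicate 1 did. The call on Acaca ended when Control replicate 1 was left out (adjusted p = 0.0829), and likewise for PM2.5 replicate 1 (adjusted p = 0.0578) and PM2.5 replicate 2 (adjusted p = 0.108). Acaca shares 29.2% of its 50-base transcript stretches with the pseudogene Gm5182, so its count carries that uncertainty.

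Srebf1, which encodes SREBP-1, the activator of lipogenic genes (ENSMUSG00000020538, chromosome 11, 60089915 to 60113407, minus strand), had 77.9 and 90.2 CPM in the PM2.5 libraries. The Control libraries held 133 and 132 CPM. The log2 fold change of Srebf1 was -0.65 (SE 0.072, adjusted p = 7.26e-05), a level in PM2.5 cells of 0.636 times that in Control cells. It was the largest fall among the synthesis genes tested here, and the gap between groups exceeded the gap between the PM2.5 replicates. Srebf1 overlaps Rai1 on the opposite strand.

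Acss2, the cytosolic acetyl-CoA synthetase that uses acetate (ENSMUSG00000027605, chromosome 2, 155359868 to 155427644, plus strand), was higher, in contrast to Acly and Acaca. It had 34.3 and 42.6 CPM in the PM2.5 libraries and 27.1 and 33.6 CPM in the Control libraries, which gave a log2 fold change of 0.33 (SE 0.12) at adjusted p = 0.0499. PM2.5 replicate 1 and Control replicate 2 differed by less than 1 CPM. The call on Acss2 ended without PM2.5 replicate 2 (adjusted p = 0.366) or Control replicate 1 (adjusted p = 0.218), and with DESeq2 (adjusted p = 0.0645). A pair of small regulators of acetyl-CoA carboxylase completes this group. Mid1ip1 had 58.1 and 60.6 CPM in PM2.5 cells and 58.6 and 65.1 CPM in Control cells, with overlapping groups (adjusted p = 0.515); it shares 20.9% of its 50-base stretches with the antisense RNA Gm14493. Thrsp, known as Spot 14, had 1 and 1 counts in PM2.5 cells and 2 and 0 in Control cells, under the floor, and was not tested.

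Among the enzymes that elongate and desaturate fatty acids, 1 of the 6 tested genes passed, against 39.6% of all tested genes. Fads1, the delta-5 desaturase of polyunsaturated fatty acids (ENSMUSG00000010663, chromosome 19, 10160252 to 10174241, plus strand), had 244 and 257 CPM in PM2.5 cells and 188 and 205 CPM in Control cells. The log2 fold change of Fads1 was 0.35 (SE 0.061, adjusted p = 0.00124), with no overlap between groups. This call ended once the median change of the neighbouring genes was subtracted (0.15, adjusted p = 0.0846). Fads2, the delta-6 desaturase and neighbour of Fads1, had 348 and 349 CPM in PM2.5 cells and 329 and 335 CPM in Control cells. The groups of Fads2 did not overlap either, but the log2 fold change was 0.07 (adjusted p = 0.326).

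The stearoyl-CoA desaturases Scd1 and Scd2, which turn saturated into monounsaturated fatty acids, were abundant and showed no call. Scd2 had 1935 and 2154 CPM in PM2.5 cells and 1730 and 2086 CPM in Control cells, with overlap and adjusted p = 0.405. Without Control replicate 2, whose value was the higher of the Control pair, Scd2 passed (log2 fold change 0.23, adjusted p = 0.0118). Scd1 had 417 and 437 CPM in PM2.5 cells and 409 and 442 CPM in Control cells (adjusted p = 0.956), so that the Control libraries enclosed the PM2.5 libraries. The elongase of polyunsaturated chains, Elovl5, had 117 and 113 CPM in PM2.5 cells and 115 and 114 CPM in Control cells (adjusted p = 0.897). Elovl6, which elongates saturated chains, had 166 and 168 CPM in PM2.5 cells and 165 and 171 CPM in Control cells (adjusted p = 0.876).

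Entry into glycerolipids was represented by 2 genes. Gpam, the mitochondrial glycerol-3-phosphate acyltransferase that starts triglyceride synthesis (ENSMUSG00000024978, chromosome 19, 55055700 to 55115670, minus strand), had 93.4 and 96.5 CPM in PM2.5 cells and 84.9 and 82.2 CPM in Control cells. Its log2 fold change was 0.19 (SE 0.060, adjusted p = 0.0301). The groups did not overlap, but the call ended without Control replicate 2 (adjusted p = 0.102) and without either PM2.5 library (adjusted p = 0.0939 and 0.209 for replicates 1 and 2). It also ended with DESeq2 (adjusted p = 0.0972). Acsl3, an acyl-CoA synthetase of the endoplasmic reticulum and of lipid droplets, had 72.7 and 78.7 CPM in PM2.5 cells and 74.6 and 89.0 CPM in Control cells, with overlap (adjusted p = 0.305). Acsl3 passed, as lower, without Control replicate 1 (adjusted p = 0.0223).

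**Figure D2:**
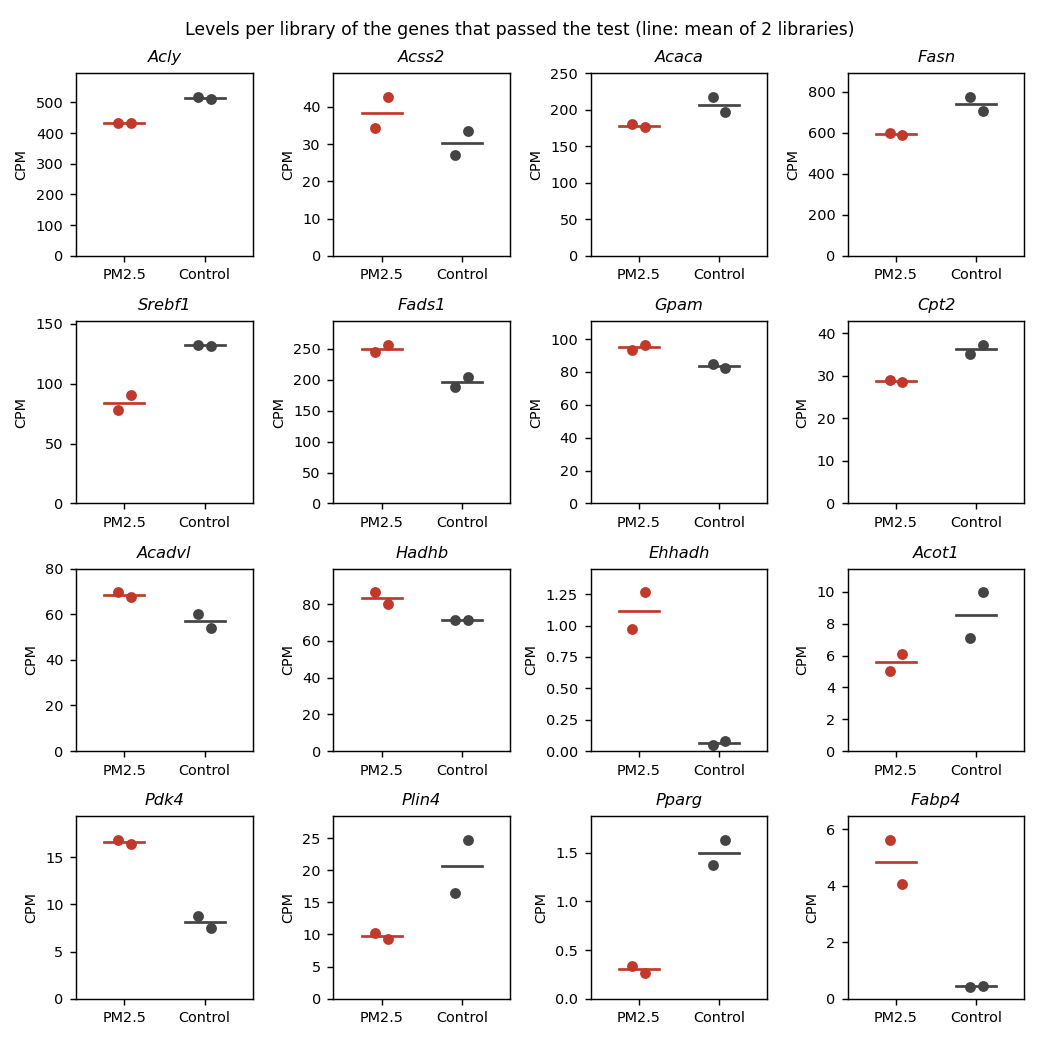
CPM in each library (points) and the mean of 2 libraries (line) for the 16 genes that passed the test, PM2.5 on the left and Control on the right of each panel, on linear axes that start at 0. The panels of Fabp4 and Ehhadh show Control points near 0 and PM2.5 points far above them, while those of Acly, Acaca, Gpam and Hadhb show small steps.

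The carnitine shuttle and the long-chain enzymes of mitochondrial beta-oxidation did not move as a block. Cpt1a, the outer membrane carnitine palmitoyltransferase that controls entry, had 126 and 137 CPM in PM2.5 cells and 127 and 133 CPM in Control cells (adjusted p = 0.882). Cpt2, its inner membrane partner (ENSMUSG00000028607, chromosome 4, 107761178 to 107780807, minus strand), had 29.0 and 28.7 CPM in PM2.5 cells and 35.1 and 37.3 CPM in Control cells. Cpt2 was thus lower by log2 fold change -0.33 (SE 0.078) at adjusted p = 0.00722, and the replicates of each group lay close together. The call on Cpt2 ended once the median change of the neighbouring genes was subtracted (-0.05, adjusted p = 0.689).

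Acyl-CoA dehydrogenases open each turn of beta-oxidation and are named by chain length. Acadvl, the very-long-chain enzyme (ENSMUSG00000018574, chromosome 11, 69901009 to 69906237, minus strand), had 69.6 and 67.5 CPM in PM2.5 cells and 60.1 and 53.9 CPM in Control cells. Its log2 fold change was 0.27 (SE 0.071, adjusted p = 0.0126). The call on Acadvl ended without PM2.5 replicate 1 (adjusted p = 0.0753) or Control replicate 2 (adjusted p = 0.0733). Acadvl overlaps Dvl2 on the opposite strand and shares 26.9% of its 50-base stretches with it, which leaves its count uncertain if strand was not used. Acadl, the long-chain enzyme, had 78.8 and 75.5 CPM in PM2.5 cells and 72.1 and 73.4 CPM in Control cells, without overlap and without a call (adjusted p = 0.306). Acadm, the medium-chain enzyme, had 53.8 and 53.6 CPM in PM2.5 cells and 54.4 and 60.3 CPM in Control cells (adjusted p = 0.309).

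Hadha and Hadhb encode the alpha and beta subunits of the mitochondrial trifunctional protein and lie head to head on chromosome 5, 85 bases apart. Hadhb (ENSMUSG00000059447, 30360246 to 30389591, plus strand) had 86.4 and 80.0 CPM in PM2.5 cells and 71.4 and 71.6 CPM in Control cells. Its log2 fold change was 0.22 (SE 0.064, adjusted p = 0.0201), and the call ended without PM2.5 replicate 1 (adjusted p = 0.209) and with DESeq2 (adjusted p = 0.0603). Hadha had 194 and 193 CPM in PM2.5 cells and 187 and 178 CPM in Control cells, without overlap and without a call (log2 fold change 0.09, adjusted p = 0.237). Both subunits thus had PM2.5 values above Control values, of which only that of Hadhb passed; the difference between the subunits was not tested. Hadhb shares 18.1% of its 50-base stretches with the pseudogene Gm13910.

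Ehhadh, the bifunctional enzyme of peroxisomal beta-oxidation and a classical PPAR-alpha target in rodent liver (ENSMUSG00000022853, chromosome 16, 21580037 to 21606557, minus strand), was close to absent in Control cells. It had 20 and 24 counts in the PM2.5 libraries and 1 and 2 counts in the Control libraries. After scaling, the ratio was 16.6, with a 95% counting interval of 5.32 to 83.5. The fitted log2 fold change was 3.94 (SE 0.60, adjusted p = 5.14e-04), and counting error alone gives a standard error of 0.86. In total gene reads, the wider deposited count, Ehhadh had 35 and 36 reads in PM2.5 cells and 5 and 6 in Control cells. On these reads its log2 fold change was 2.80 (adjusted p = 6.52e-04). Every PM2.5 value exceeded every Control value on both counts, at a low level.

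Pdk4, pyruvate dehydrogenase kinase 4, which shuts pyruvate out of the citric acid cycle and is known to be induced in fasting (ENSMUSG00000019577, chromosome 6, 5483351 to 5496309, minus strand), was higher. It had 16.8 and 16.4 CPM in PM2.5 cells and 8.78 and 7.45 CPM in Control cells. On the log2 scale the fold change was 1.05 (SE 0.12, adjusted p = 1.04e-04), a 2.07-fold difference. The PM2.5 libraries differed from each other by far less than the groups did.

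Acyl-CoA thioesterases return acyl-CoA to free fatty acid, Acot1 in the cytosol and Acot2 in mitochondria. Acot1 (ENSMUSG00000072949, chromosome 12, 84056264 to 84065145, plus strand) had 5.04 and 6.11 CPM in PM2.5 cells and 7.10 and 9.97 CPM in Control cells, with log2 fold change -0.64 (SE 0.19) and adjusted p = 0.0209. The Control libraries lay farther from each other than PM2.5 replicate 2 lay from Control replicate 1, and the call ended without PM2.5 replicate 1 (adjusted p = 0.105), without Control replicate 2 (adjusted p = 0.181) and with DESeq2 (adjusted p = 0.0571). Acot2 had 13.8 and 16.2 CPM in PM2.5 cells and 15.3 and 15.2 CPM in Control cells (adjusted p = 0.872). Their genes are near-identical in part: Acot1 shares 13.6% of its 50-base stretches with Acot2, so how reads were divided between them is uncertain. Ucp2, a mitochondrial carrier of the uncoupling protein family, ranged from 6.64 to 7.71 CPM in PM2.5 cells and from 8.41 to 10.2 CPM in Control cells and missed the threshold (adjusted p = 0.0662). It passed, as lower, without Control replicate 1 (log2 fold change -0.51, adjusted p = 0.0257).

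Genes of lipid droplets and lipase control gave 1 call among 4 tested, or 25%, against 39.6% of all tested genes. Plin4, a perilipin of nascent droplets in fat cells (ENSMUSG00000002831, chromosome 17, 56407591 to 56416803, minus strand), had 10.3 and 9.22 CPM in PM2.5 cells and 16.5 and 24.7 CPM in Control cells. On the log2 scale the fold change was -1.10 (SE 0.18, adjusted p = 8.07e-04). The Control replicates of Plin4 differed by more than the PM2.5 replicates, yet both lay above them. Plin4 overlaps Hdgfl2 on the opposite strand. Plin2, the perilipin found on droplets of most cells and of milk fat globules, had 111 and 108 CPM in PM2.5 cells and 108 and 127 CPM in Control cells, with overlap (adjusted p = 0.282). Plin2 passed, as lower, without Control replicate 1 (adjusted p = 0.0191).

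Plin5, which ties droplets to mitochondria and lies 1797 bases from Plin4, had 6 and 4 counts in PM2.5 cells and 3 and 1 in Control cells and was not tested. The scaled ratio for Plin5 was 2.83, with a counting interval of 0.816 to 12.4. Cidec, a droplet fusion protein of fat cells, had 0 counts in the 4 libraries. Hilpda, a droplet protein that inhibits the lipase ATGL, ranged from 4.32 to 5.28 CPM in PM2.5 cells and from 5.78 to 7.31 CPM in Control cells (adjusted p = 0.0924). Hilpda passed, as lower, without Control replicate 2 (-0.61, adjusted p = 0.0305). Angptl4, a secreted inhibitor of lipoprotein lipase, had 38.1 and 36.4 CPM in PM2.5 cells and 27.1 and 34.1 CPM in Control cells. Both PM2.5 values of Angptl4 were above both Control values, and it missed the threshold narrowly (log2 fold change 0.27, adjusted p = 0.0572). It passed without Control replicate 2 (log2 fold change 0.45, adjusted p = 0.00173).

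The 3 PPAR genes differed in level, and the receptor called, Pparg, was lower. Ppara had 0 counts in the 4 libraries. Ppard, the widely expressed receptor, had 68.2 and 72.3 CPM in PM2.5 cells and 73.3 and 75.4 CPM in Control cells, without overlap and without a call (log2 fold change -0.08, adjusted p = 0.324). Pparg, the receptor that drives fat cell differentiation (ENSMUSG00000000440, chromosome 6, 115337912 to 115467360, plus strand), had 7 and 5 counts in PM2.5 cells and 26 and 42 in Control cells. That is 0.339 and 0.263 CPM in PM2.5 cells against 1.37 and 1.63 CPM in Control cells. The scaled Control level was 5.01 times the PM2.5 level, with a counting interval of 2.69 to 10.2, and the fitted log2 fold change was -2.30 (SE 0.42, adjusted p = 0.00164). Counting error alone gives a standard error of 0.45.

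The fall of Pparg was smaller on the wider count. Total gene reads of Pparg were 25 and 19 in PM2.5 cells and 38 and 66 in Control cells, where the log2 fold change came to -1.10 (adjusted p = 0.0144). Reads of the gene that the count left out made up 72.0% and 73.7% of its total gene reads in PM2.5 cells and 31.6% and 36.4% in Control cells. Over all genes that share was 11.7% and 11.6% in the PM2.5 libraries and 9.81% and 10.5% in the Control libraries. The file headers do not define these reads, and their part in the fall was not tested.

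Fabp4, the fatty acid binding protein of fat cells and macrophages and a known PPAR-gamma target (ENSMUSG00000062515, chromosome 3, 10269148 to 10273636, minus strand), was higher while Pparg was lower. It had 116 and 77 counts in PM2.5 cells and 8 and 12 in Control cells, or 5.62 and 4.06 CPM in PM2.5 cells against 0.421 and 0.465 CPM in Control cells. The scaled ratio was 10.9, with a counting interval of 6.88 to 18.3. Counting error alone gives a standard error of 0.34 on the log2 scale. The fitted log2 fold change of Fabp4 was 3.43 (SE 0.33, adjusted p = 2.79e-05), the smallest adjusted p of the 34 genes. Fabp5, its epidermal relative 187480 bases away, had 49.8 and 40.7 CPM in PM2.5 cells and 51.3 and 44.4 CPM in Control cells, with overlap (adjusted p = 0.595). Cd36, the fatty acid translocase, had 0 and 1 counts in PM2.5 cells and 0 and 0 in Control cells and was not tested.

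Levels of different genes are compared on the deposited RPKM values, which are scaled to gene length. Scd2 had the highest RPKM of the 39 genes, 316 ± 24.9 in PM2.5 cells and 290 ± 38.7 in Control cells (SD, n = 2 each), followed by Fads2, Acly, Scd1, Fasn and Fads1. Fads2 had 92.3 ± 0.471 RPKM in PM2.5 cells and 86.7 ± 1.25 in Control cells, and Acly had 79.2 ± 0.0585 in PM2.5 cells and 92.7 ± 0.713 in Control cells. These neighbours in the order change places between groups. Synthesis genes thus held the top of the order, and of the genes of oxidation Hadha ranked highest, with 40.7 ± 0.113 RPKM in PM2.5 cells and 37.7 ± 1.22 in Control cells. The genes with the largest fold changes were low: Fabp4 had 4.56 ± 1.03 RPKM in PM2.5 cells and 0.411 ± 0.0300 in Control cells, Ehhadh had 0.317 ± 0.0601 in PM2.5 cells and 0.0182 ± 0.00495 in Control cells, and Pparg had 0.0994 ± 0.0174 in PM2.5 cells and 0.487 ± 0.0608 in Control cells.

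Within the sets of related genes summed here, 1 member held most of the length-scaled transcript. The perilipin sum leaves out Plin1 and Plin3, and the Fabp sum leaves out the other Fabp genes. Ppard made up 99.3% and 99.5% of the summed RPKM of the PPAR genes in PM2.5 cells and 97.6% and 97.2% in Control cells. Plin2 made up 96.8% and 97.1% of the sum over Plin2, Plin4 and Plin5 in PM2.5 cells and 95.1% and 93.9% in Control cells. Fabp4 made up 11.1% and 9.89% of the sum of Fabp4 and Fabp5 in PM2.5 cells and 0.896% and 1.14% in Control cells. Srebf1 made up 22.0% and 23.3% of the sum of Srebf1 and Srebf2 in PM2.5 cells and 35.3% and 34.1% in Control cells. Fabp5 and Srebf2, the activator of cholesterol synthesis genes, were therefore the main transcripts of their pairs in all 4 libraries. Srebf2 was itself called higher in PM2.5 cells (log2 fold change 0.20, SE 0.058, adjusted p = 0.0191). The lower share of Srebf1 thus does not come from Srebf1 alone.

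**Figure D3:**
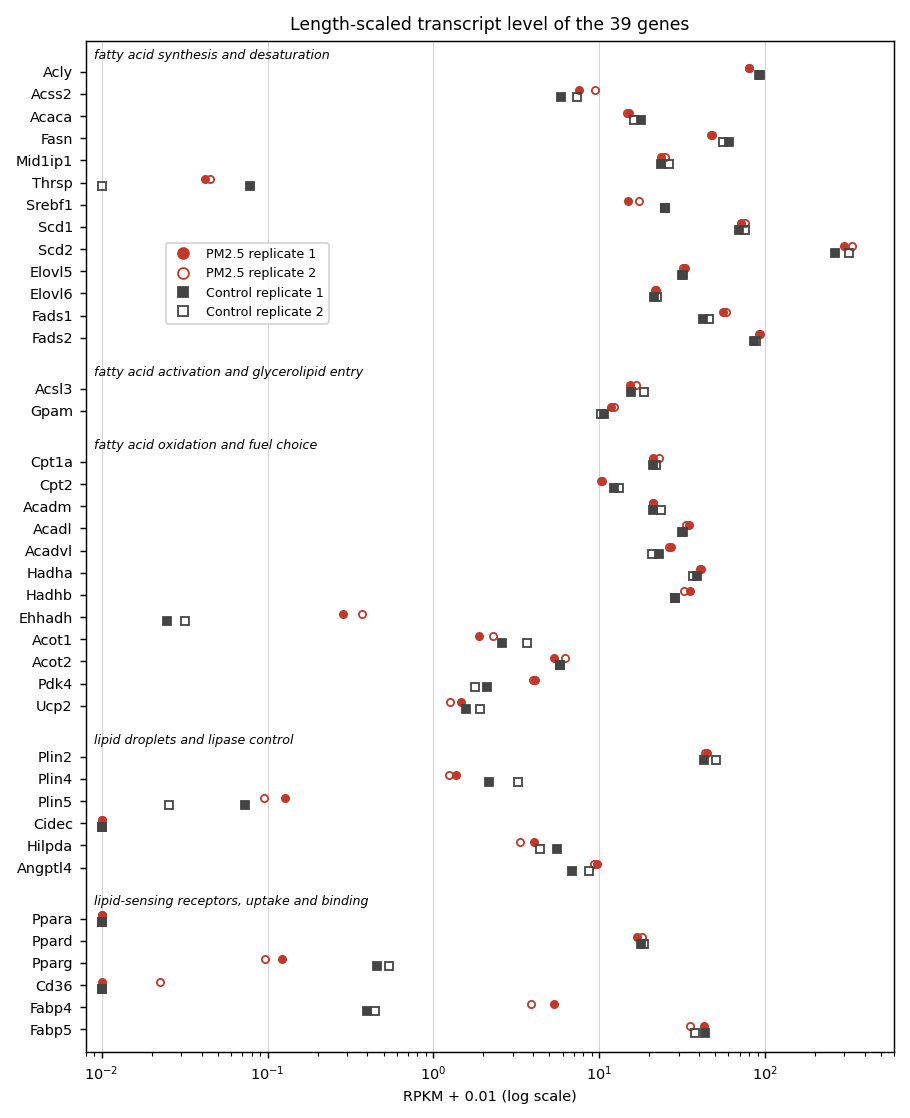
RPKM of the 39 genes in each library, plus 0.01 so that a value of 0 can be drawn, on a log axis, with circles for PM2.5 and squares for Control. Scd2 lies at the right near 300, most enzymes lie between 10 and 100, and Ppara and Cidec lie at the left edge, at 0 in each library.

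Stretches of chromosomes differed between the groups, so fold changes were also set against those of neighbouring genes. The median log2 fold change over the tested genes of chromosome 11, which carries Acly, Acaca, Fasn, Srebf1 and Acadvl, was -0.14. On chromosome 19, which carries Scd1, Scd2, Fads1, Fads2, Gpam and Cpt1a, it was 0.20, and on chromosome 4, which carries Cpt2 and Plin2, it was -0.22. Set against the median of the 50 nearest tested genes on each side, the log2 fold change of Fasn was -0.17 (adjusted p = 0.0534), that of Acly -0.08 (adjusted p = 0.277) and that of Acaca -0.07 (adjusted p = 0.451), so that the calls on all 3 core synthesis enzymes ended. The calls on Acss2 (adjusted p = 0.266), Fads1 (0.15, adjusted p = 0.0846), Gpam (0.05, adjusted p = 0.515), Cpt2 (-0.05, adjusted p = 0.689), Acadvl (0.19, adjusted p = 0.0615) and Hadhb (adjusted p = 0.108) ended too. The cause of these chromosome medians was not tested.

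After this correction 5 of the 34 genes were higher and 7 lower, against 31.7% of all tested genes called. Srebf1 kept its call at -0.46 (adjusted p = 9.28e-04), and Pdk4 (1.13), Ehhadh (4.20), Fabp4 (3.24), Pparg (-2.28), Plin4 (-0.94) and Acot1 (-0.60) kept theirs. The correction added calls on Angptl4 (0.35, adjusted p = 0.0266) and Plin2 (0.27, adjusted p = 0.0191) as higher and on Elovl6 (-0.16, adjusted p = 0.0419), Cpt1a (-0.20, adjusted p = 0.0319) and Ucp2 (-0.47, adjusted p = 0.0370) as lower. For Plin2 and Cpt1a the sign turned as well. All 5 genes that differed by more than 2-fold are among those that kept their call.

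**Figure D4:**
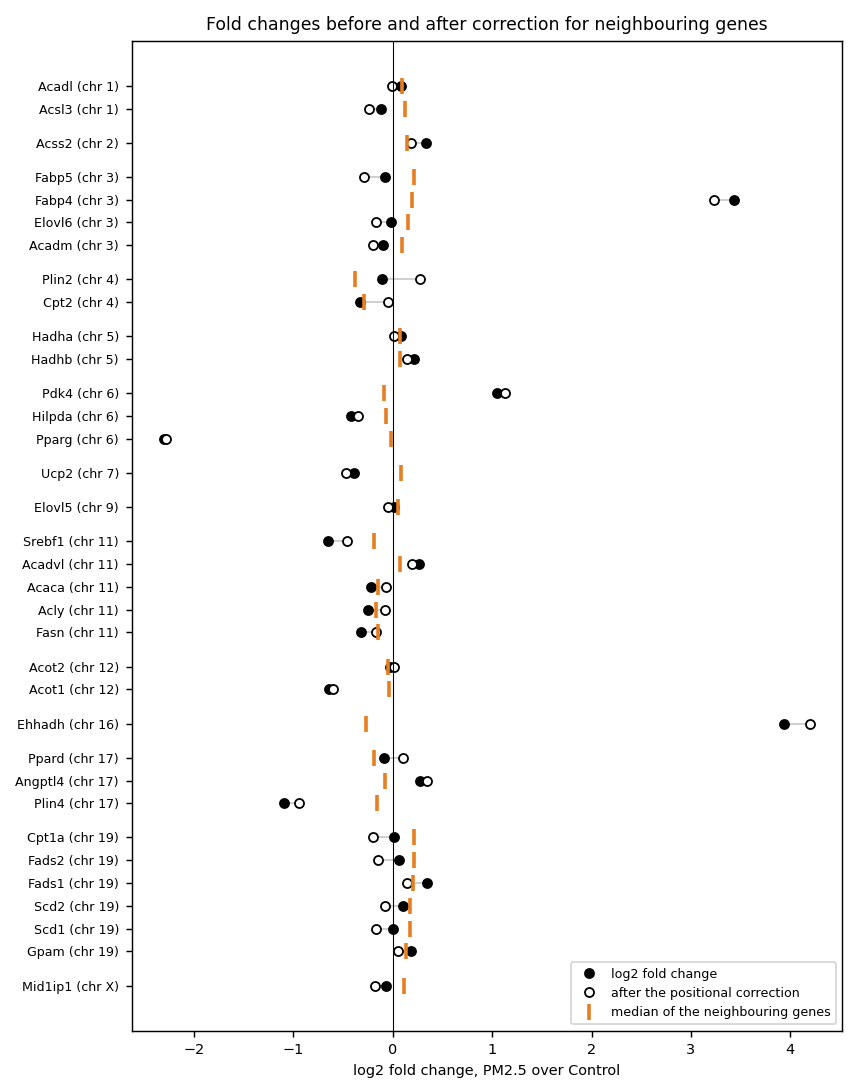
Log2 fold change of each tested gene before (filled) and after (open) subtraction of the median of the neighbouring genes (orange bar), in chromosome order. Acly, Acaca, Fasn and Cpt2 lie close to their orange bars and move toward 0, while Ehhadh, Fabp4, Pdk4, Pparg and Plin4 lie far from theirs.

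Other genes of the same pathways, 164 in 8 lists, were counted to set the 39 in context; the lists were chosen with earlier results of these data known. Of 120 tested, 29 were higher and 18 lower, with a median log2 fold change of 0.03. Their called share of 39.2% was near the 39.6% of all tested genes. Leaving out PM2.5 replicate 1 or PM2.5 replicate 2 reduced the number of calls, both in these lists and over all tested genes. Under library-size scaling alone, these lists gave 37 calls upward and 13 downward, a larger share of higher calls. In the list of other synthesis, elongation and SREBP genes, 8 of 24 tested were higher and 4 lower, 50% called (median log2 fold change 0.05). Tecr, the reductase that ends each elongation cycle, had 137 and 142 CPM in PM2.5 cells and 188 and 186 CPM in Control cells (log2 fold change -0.42, SE 0.055, adjusted p = 2.04e-04). Scd3, a desaturase beside Scd1 and Scd2, had 174 and 186 CPM in PM2.5 cells and 100 and 126 CPM in Control cells (0.67, SE 0.091, adjusted p = 2.69e-04). Hacd4, a dehydratase of elongation, had 23.0 and 20.7 CPM in PM2.5 cells and 13.5 and 11.3 CPM in Control cells (0.83, SE 0.12, adjusted p = 3.42e-04). The calls thus went both ways here, as among the 12 synthesis genes above, where 2 were higher and 4 lower.

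In the list of other mitochondrial oxidation genes 6 of 24 tested were higher, 0 lower and 18 did not pass (median 0.11). That is 25% called, against 39.6% of all tested genes, of which 19.2% were higher. Decr1, which handles unsaturated fatty acids, had 8.34 and 6.80 CPM in PM2.5 cells and 2.16 and 2.02 CPM in Control cells (log2 fold change 1.87, SE 0.20, adjusted p = 5.41e-05). Acad11, an acyl-CoA dehydrogenase, had 28.3 and 27.4 CPM in PM2.5 cells and 18.2 and 20.2 CPM in Control cells (0.53, adjusted p = 0.00125). Echs1, the enoyl-CoA hydratase, had 70.3 and 71.5 CPM in PM2.5 cells and 56.0 and 61.8 CPM in Control cells (0.27, adjusted p = 0.0117). Its call was lost when PM2.5 replicate 2 (adjusted p = 0.0662) or Control replicate 1 (adjusted p = 0.0566) was left out. Of 14 peroxisomal genes tested, 4 were higher and 3 lower, 50% called (median 0.09). Phyh, which starts alpha-oxidation of branched chains, had 1.75 and 1.84 CPM in PM2.5 cells and 7.36 and 8.49 CPM in Control cells (-2.15, SE 0.20, adjusted p = 2.25e-05). Decr2, the peroxisomal relative of Decr1, had 2.13 and 1.90 CPM in PM2.5 cells and 0.473 and 0.504 CPM in Control cells (2.03, SE 0.34, adjusted p = 0.00103). The mitochondrial Decr1 and the peroxisomal Decr2 and Ehhadh, all low in Control cells, were each more than 2-fold higher. Phyh was lower than in Control cells, so the peroxisomal genes did not share a direction.

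Among storage and release genes, lysosomal acid lipase and, at low counts, G0s2 were more than 2-fold higher. A droplet dehydrogenase was more than 2-fold lower. Of 12 triglyceride synthesis genes tested, 1 was higher and 1 lower (median log2 fold change 0.01). Their called share was 16.7%, below the 39.6% of all tested genes. Dgat1, which adds the last acyl chain, had 25.9 and 28.6 CPM in PM2.5 cells and 23.0 and 19.2 CPM in Control cells (0.38, adjusted p = 0.0168). Agpat1, which acylates lysophosphatidic acid, had 105 and 106 CPM in PM2.5 cells and 124 and 118 CPM in Control cells (-0.20, adjusted p = 0.0201). Neither call was firm: that on Dgat1 ended without PM2.5 replicate 2 (adjusted p = 0.109) or Control replicate 2 (adjusted p = 0.106), that on Agpat1 without Control replicate 1 (adjusted p = 0.0624) or either PM2.5 library (adjusted p = 0.123 and 0.0897 for replicates 1 and 2), and both with the positional correction (adjusted p = 0.0552 and 0.0594). Of 12 lipolysis and droplet genes, 3 were higher and 1 lower, 33.3% called (median 0.09). Lipa, lysosomal acid lipase, had 205 and 206 CPM in PM2.5 cells and 77.0 and 76.7 CPM in Control cells (1.42, SE 0.056, adjusted p = 8.09e-08), the smallest adjusted p among the lipid genes named here. Abhd5, the activator of ATGL, had 54.2 and 55.5 CPM in PM2.5 cells and 39.4 and 43.9 CPM in Control cells (0.39, adjusted p = 0.00216). Hsd17b11, a droplet-associated dehydrogenase, had 1.79 and 1.90 CPM in PM2.5 cells and 5.57 and 5.12 CPM in Control cells (-1.53, SE 0.21, adjusted p = 2.58e-04). G0s2, of the same list, was called higher (1.68, SE 0.54, adjusted p = 0.0301). Its counts were 15 and 11 in PM2.5 cells and 4 and 5 in Control cells.

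Genes of uptake and of PPAR function were called in both directions. Of 6 tested uptake, binding and lipase genes, 2 were higher and 2 lower (median log2 fold change -0.18). Their called share was 66.7%, against 39.6% of all tested genes. Lpl, lipoprotein lipase, had 193 and 197 CPM in PM2.5 cells and 138 and 159 CPM in Control cells (0.39, adjusted p = 0.00140). Slc27a1, a fatty acid transport protein, had 163 and 163 CPM in PM2.5 cells and 118 and 135 CPM in Control cells (0.36, adjusted p = 0.00184). Dbi, the acyl-CoA binding protein, had 104 and 102 CPM in PM2.5 cells and 123 and 137 CPM in Control cells (-0.35, adjusted p = 0.00198). Of 17 PPAR partners and coregulators, 4 were higher and 4 lower, 47.1% called (median -0.10). Med1, the Mediator subunit that contacts nuclear receptors, had 155 and 160 CPM in PM2.5 cells and 199 and 188 CPM in Control cells (-0.30, adjusted p = 0.00226). The retinoid X receptor Rxrb had 50.2 and 50.5 CPM in PM2.5 cells and 63.9 and 58.6 CPM in Control cells (-0.28, adjusted p = 0.00941). Ncor1, a corepressor, had 274 and 283 CPM in PM2.5 cells and 330 and 316 CPM in Control cells (-0.21, adjusted p = 0.0119). The 4 called higher were Ncoa1, Ncoa2, Prkag2 and another retinoid X receptor, Rxra (0.20, adjusted p = 0.0370). With the positional correction the calls on Med1 (adjusted p = 0.121), Ncor1 (adjusted p = 0.249), Ncoa2 (adjusted p = 0.296) and Prkag2 (adjusted p = 0.0827) ended. The call on Ncor1 also ended with PM2.5 replicate 1 or PM2.5 replicate 2 left out (log2 fold changes of -0.19 and -0.24).

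Of 11 acyl-CoA synthetases and thioesterases tested outside the 39, 1 was higher and 3 lower (median log2 fold change -0.13). Their called share was 36.4%, against 39.6% of all tested genes. Acot7 had 37.5 and 36.5 CPM in PM2.5 cells and 50.8 and 44.8 CPM in Control cells (-0.36, adjusted p = 0.00503). Acot9 had 61.4 and 51.6 CPM in PM2.5 cells and 69.6 and 69.5 CPM in Control cells (-0.30, adjusted p = 0.0147), which did not pass when PM2.5 replicate 2 was left out (adjusted p = 0.167). Acot4, a peroxisomal thioesterase next to Acot1 on chromosome 12, had 15 and 19 counts in PM2.5 cells and 5 and 5 in Control cells (1.92, SE 0.51, adjusted p = 0.0130). Its call ended without PM2.5 replicate 2 (adjusted p = 0.123), without Control replicate 2 (adjusted p = 0.0852) and with DESeq2 (adjusted p = 0.0895), and its count may share reads with the other thioesterases of that cluster.

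**Figure D5:**
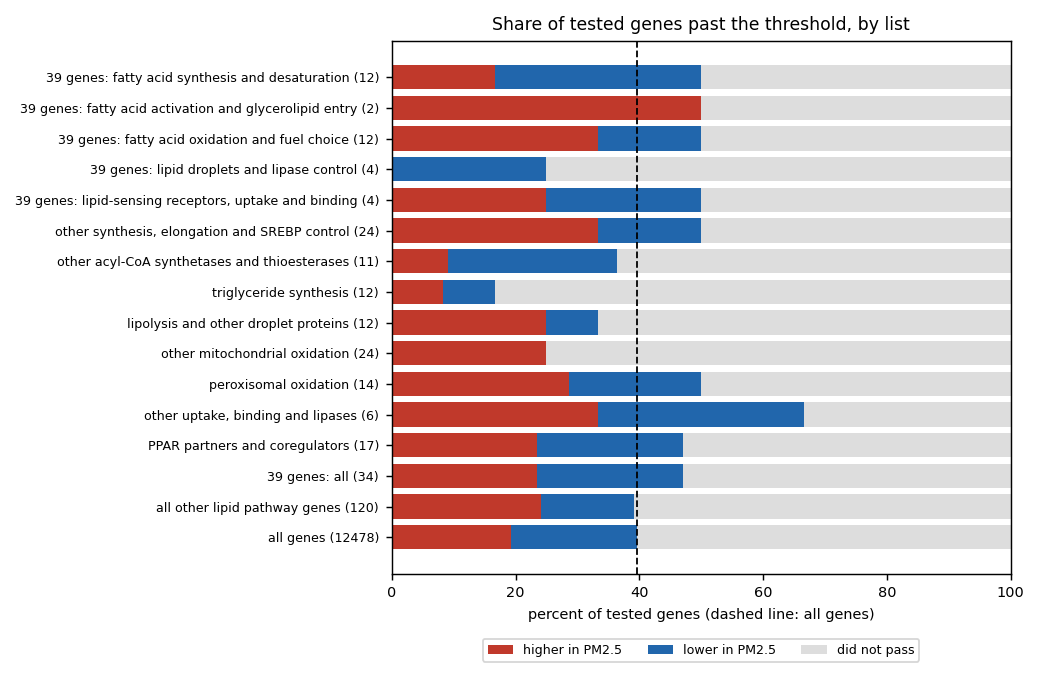
Percent of the tested genes of each list that were higher (red), lower (blue) or did not pass (grey), with the number tested in brackets. The bar of all 12478 tested genes ends at the dashed line, at 39.6%, and the 34 tested of the 39 genes reach 47.1%.

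Markers of other cell types were read beside the fat-cell genes of the group, since in bulk RNA fewer cells of a type and less RNA per cell cannot be told apart. Of 9 adipocyte markers, Adipoq, Cidea and Cfd had 0 counts in the 4 libraries, and 8 had a mean below 1 CPM. Their summed level was 9.45 and 10.4 CPM in PM2.5 cells and 8.05 and 9.23 CPM in Control cells, most of it from Lipe, hormone-sensitive lipase. Of 8 macrophage markers, 5 had a mean below 1 CPM, and the sum was 68.5 and 75.4 CPM in PM2.5 cells and 64.9 and 75.4 CPM in Control cells. Of the 3 tested, Cd68, a lysosomal protein of macrophages, was higher, with 9.02 and 10.3 CPM in PM2.5 cells and 3.63 and 4.23 CPM in Control cells. Lyz2 (log2 fold change 0.33, adjusted p = 0.111) and Cd14 (-0.15, adjusted p = 0.205) did not pass. The part of such cells in the change of Fabp4 was not tested. Of 14 epithelial markers, Epcam, Krt18, Krt19, Krt5, Cldn4 and Esrp1 had 0 counts in the 4 libraries, although the line is labelled epithelial. Of the 14, 13 had a mean below 1 CPM. The epithelial sum, nearly all from the basal keratin Krt14, was 22.1 and 21.2 CPM in PM2.5 cells and 53.6 and 51.6 CPM in Control cells. The 2 epithelial markers tested went opposite ways: Krt14 was lower (log2 fold change -1.40, adjusted p = 1.45e-06) and Grhl2 higher (2.10, adjusted p = 0.0169). Grhl2 had 12 and 19 counts in PM2.5 cells and 2 and 6 in Control cells. Fibroblast and mesenchymal markers summed to 3877 and 4038 CPM in PM2.5 cells and 4949 and 4740 CPM in Control cells, most of it Vim and Col1a2, which were lower. Of the 7 tested, 3 were higher (Dcn, Col3a1 and Col1a1) and 3 lower (Vim, Col1a2 and Pdgfrb), with a median log2 fold change of 0.11. All 5 endothelial markers had a mean below 1 CPM. The part of these differences in the lipid results was not tested.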

How the data were processed

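RNA-seq libraries of PM2.5-treated and Control EpH4 cells (2 each) were compared. The authors deposited counts for each gene as they were, without scaling. RPKM values, scaled to gene length and library size, and a wider count named total gene reads were also deposited by the authors, per the file headers, which do not define the reads that only the wider count holds. Per the submitters' processing notes, the genome build is GRCm39. How reads were aligned and counted, by which annotation and whether by strand, is not given in the sources used here.

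Counts of 25413 genes were filtered with filterByExpr, which kept 12478, scaled by TMM and tested with edgeR 4.0.16 in R 4.3.3 (quasi-likelihood F test, unpaired, Benjamini-Hochberg adjustment over all tested genes, threshold 0.05). Adjusted p-values come from this fit where no other is named, and CPM is scaled by TMM. The standard error (SE) divides the size of the log2 fold change by the root of F. Ratios of low counts carry exact 95% counting intervals. The positional correction subtracts the median log2 fold change of the 50 nearest tested genes on each side. Shared 50-base stretches were counted between GENCODE transcripts (GRCm38), on both strands.

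The members and lists were chosen with earlier results of these data known. Called members without overlap between groups are given in full, other tested members with a mean of at least 10 CPM per library, the rest by range or count, and up to 3 called genes per list without overlap, by smallest p; 1 such gene is not reported here. Named beyond that rule were G0s2, Srebf2, Rxra, Ncoa1, Ncoa2 and Prkag2. Alternatives were other scalings, filters, DESeq2 1.42.0 and limma 3.58.1 (voom, and trend on log2 of RPKM plus 0.1 or 1). Further alternatives were total gene reads, thinning, a replicate block, each library left out and a minimum change of 1.5-fold.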

Additional observations from a re-analysis of the deposited data

How the results depend on the processing

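Across 19 alternatives the 16 called genes kept their direction in every value obtained, 303 in all: 252 stayed past the threshold and 51 did not. Ehhadh, Pdk4, Fabp4, Pparg and Plin4 kept the call in every alternative that could test them, and Srebf1 in every one but the minimum change of 1.5-fold. Of the 39 genes, 8 were higher; the number was 5 with no filter, with the positional correction and with DESeq2, 3 with a minimum change of 1.5-fold, and 5 to 8 with each library left out. The number lower, 8, was 2 with the minimum change and 6 to 10 with each library left out. Of all genes, 4939 were called, 513 with the minimum change and 3110 to 4842 with each library left out. Of the other pathway genes, 29 were higher, 18 with DESeq2, 5 with the minimum change and 15 to 26 with each library left out, while 18 were lower, 2 with the minimum change and 11 to 17 with each library left out.

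Reversed signs occurred in 13 genes that had not passed. Under the positional correction, log2 fold changes were -0.170 for Scd1, -0.0758 for Scd2, -0.0462 for Elovl5, -0.149 for Fads2, -0.199 for Cpt1a, -0.00928 for Acadl, 0.0174 for Acot2, 0.272 for Plin2 and 0.104 for Ppard; Cpt1a and Plin2 then passed. With no filter they were -0.0161 for Scd1, -0.00965 for Elovl5 and -0.00775 for Cpt1a, and with total gene reads -0.0395 for Scd1, -0.0385 for Elovl5 and 0.0451 for Elovl6. With upper-quartile scaling and with library size only, Elovl6 had 0.0304 and 0.0498 and Acot2 had 0.0158 and 0.0350. Limma-trend gave Elovl6 0.0106 and 0.0102 at pseudocounts of 0.1 and 1. With each library left out, the range was -0.139 to 0.0108 for Mid1ip1, -0.0544 to 0.0569 for Scd1, -0.0329 to 0.234 for Scd2, -0.0188 to 0.0343 for Elovl5, -0.0445 to 0.00975 for Elovl6, -0.239 to 0.0143 for Acsl3, -0.0484 to 0.0686 for Cpt1a, -0.148 to 0.0843 for Acot2, -0.219 to 0.00733 for Plin2 and -0.232 to 0.0575 for Fabp5. The cause was not tested.

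With a replicate block, 9 of the 39 genes were higher and 10 lower, and 5793 of all genes were called. Libraries with the same number deviated together with a correlation of 0.124 across genes, but with 2 pairs they share only a number. With 2 libraries a group, small differences rest on few values, and 5 genes with 14 or fewer counts in all could not be tested.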
